A study of Mus musculus with 13 samples.

Results

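Myeloid C-type lectin receptors are surface proteins with which monocytes, macrophages, neutrophils and dendritic cells bind sugars and lipids of microbes and damaged cells. The set held 9 named genes, Clec4a1, Clec4a2, Clec4a3, Clec4d, Clec4e, Clec4n, Clec5a, Clec7a and Clec12a, and each was read from the row that carries its symbol. Of the 9, 8 had a row among the 19505 genes measured, and Clec7a was not analysed here. Of those 8, 7 were among the 10601 genes tested, and Clec4n had too low a signal to pass the filter.

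Whole bone marrow RNA was measured on 13 Affymetrix arrays, 4 of BRSST+sgEzh2, 5 of BRSST+sgLuc and 4 of sgLuc. BRSST is the submitters' name for a combination of guide RNAs that the labels do not spell out, sgEzh2 adds a guide against Ezh2, and sgLuc is the control guide. In all 3 groups the donor cells were LSK cells, a stem and progenitor fraction, of Cas9 knock-in mice, transduced with the guides and given 24 h later to C57Bl/6J mice irradiated with 7 Gy. Marrow was taken once leukemia showed or at 6 months, and the labels give neither the case nor the age of a mouse, nor the share of host cells or of edited cells. Whether every array stands for its own animal is not stated, so the p-values here cover array-to-array spread that could be purely technical. Array numbers in the sample descriptions run on through both BRSST groups and resume after a gap for sgLuc. What they mark is not stated, and any handling they mark cannot be told apart from the change of group. All values are log2 signals, and differences are between their means, with limma adjusted p over all genes tested and a threshold of 0.05. Ezh2 itself lay between 8.08 and 9.22 with BRSST+sgEzh2, between 9.15 and 10.46 with BRSST+sgLuc and between 9.94 and 10.55 with sgLuc, and it fell against sgLuc with BRSST+sgEzh2 (-1.57 ± 0.28, SE, adjusted p = 0.00306), while its difference from BRSST+sgLuc, -1.05 ± 0.26 (SE), did not pass (adjusted p = 0.0808). Markers of the marrow's granulocytes were measured on every array, with means over 11 neutrophil genes between 12.30 and 12.81.

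These receptors work in opposed classes. Clec4d, Clec4e and Clec4n (Dectin-2 of the literature) pair with the adaptor Fcer1g, Clec5a pairs with the adaptor Tyrobp, and both adaptors engage the kinase Syk, whose signal passes through Prkcd to the Card9, Bcl10 and Malt1 complex and on to cytokine genes. Clec4a2 and Clec12a carry inhibitory tails that recruit the phosphatases Ptpn6 and Ptpn11. Clec4a1 and Clec4a3 are close relatives of Clec4a2 on monocytes and dendritic cells. In bulk marrow, fewer cells of a type and less RNA per cell cannot be told apart.

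Most of these genes lie side by side. In the RefSeq annotation of GRCm38.p6 a run of 9 protein-coding genes reads Clec4a1, Clec4a3, Clec4a4, Clec4b1, Clec4a2, Clec4b2, Clec4n, Clec4d and Clec4e, of which 6 are members. Promoter letters from RefSeq were matched for 8 of the 9 members. Those of Clec4e, Clec4d and Clec5a are shown because Clec4e and Clec5a gave calls while Clec4d, the neighbour of Clec4e, gave none. Each is the 250 bases before the annotated start, 5′ to 3′ on the gene's strand, build GRCm38.p6, for Clec4e chr6:123289872-123290121 on the minus strand, for Clec4d chr6:123261857-123262106 on the plus strand and for Clec5a chr6:40585806-40586055 on the minus strand. Capitals mark GAGGAA, the core bound by the myeloid factor PU.1, and TTNNGCAA, a C/EBP motif, on either strand.
Clec4e: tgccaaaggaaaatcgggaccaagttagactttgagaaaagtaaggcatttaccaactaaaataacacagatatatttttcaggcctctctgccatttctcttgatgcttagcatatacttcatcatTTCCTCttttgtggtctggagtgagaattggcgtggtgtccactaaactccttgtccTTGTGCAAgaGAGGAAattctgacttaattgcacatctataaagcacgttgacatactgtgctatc
Clec4d: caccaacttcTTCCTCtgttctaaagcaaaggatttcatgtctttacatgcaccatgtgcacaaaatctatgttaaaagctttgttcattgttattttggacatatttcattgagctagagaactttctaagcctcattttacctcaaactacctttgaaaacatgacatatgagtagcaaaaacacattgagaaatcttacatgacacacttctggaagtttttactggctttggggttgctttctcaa
Clec5a: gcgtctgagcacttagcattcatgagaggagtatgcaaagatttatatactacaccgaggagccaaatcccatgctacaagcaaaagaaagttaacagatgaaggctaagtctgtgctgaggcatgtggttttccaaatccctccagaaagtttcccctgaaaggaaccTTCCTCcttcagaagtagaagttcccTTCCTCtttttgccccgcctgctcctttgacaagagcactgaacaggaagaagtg
The GAGGAA core stood in 2 places for Clec4e, in 1 for Clec4d and in 2 for Clec5a, and 23.3% of the 32851 promoter windows in the table hold it. The C/EBP motif stood in 1 place for Clec4e, next to a GAGGAA core with no overlap, and in 0 for Clec4d and Clec5a, where 9.56% of windows hold it. Among the 8 members with a window, Clec12a, which gave no call, also held the C/EBP motif, and 7 held GAGGAA. These member counts are per gene, in any of its windows, whereas the shares above are of single windows, so they are unlike measures. A match of letters is a description and not a binding site.

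Clec4a1 and Clec4a3, paralogs and neighbours in the cluster, share a run of 17 letters near their starts. The 30 bases around it are shown because no other gene of the 27025 in the table holds that run in its window. They lie at chr6:122921620-122921649 for Clec4a1 and at chr6:122952583-122952612 for Clec4a3, both on the plus strand of GRCm38.p6, with the shared run in capitals and the GAGGAA core inside it on the other strand. The Clec4a3 stretch lies between the starts of its 2 listed transcripts.
Clec4a1: ctaatgCCTGGTTCCTCTTTTTCctttcct
Clec4a3: taatgcCCTGGTTCCTCTTTTTCattcctt
This likeness is between letters near the starts, and neither transcript nor probe letters were compared. Whether probes of these paralogs share signal was not tested.

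Clec4e (Mincle), the receptor for the cord factor glycolipid of mycobacteria and for molecules of dying cells, was lowest in BRSST+sgEzh2 marrow. Its log2 signal was 10.23, 10.09, 10.34 and 10.32 with BRSST+sgEzh2. It was 10.87, 10.93, 10.48, 11.09 and 10.55 with BRSST+sgLuc, and 11.51, 11.15, 11.03 and 11.14 with sgLuc. Every BRSST+sgEzh2 array lay below every array of both other groups, while the ranges of BRSST+sgLuc and sgLuc overlapped. Against sgLuc, Clec4e fell 1.95-fold with BRSST+sgEzh2 (-0.96 ± 0.15, SE, adjusted p = 0.00113), a call that held in all 23 alternative fits (adjusted p up to 0.00532). Against BRSST+sgLuc the BRSST+sgEzh2 difference was -0.54 ± 0.14 (SE, 95% interval -0.84 to -0.24), which did not pass (adjusted p = 0.094) and did so without BRSST+sgLuc replicate 3 (-0.61, adjusted p = 0.0313) and with array quality weights (-0.63, adjusted p = 0.0114). Between BRSST+sgLuc and sgLuc it fell by 0.43 ± 0.14 (SE, adjusted p = 0.0425). That call ended in 14 of 23 alternatives, with adjusted p up to 0.151. Among them were the fits without any of BRSST+sgEzh2 replicates 1, 3 and 4, BRSST+sgLuc replicates 1, 3 and 5, and sgLuc replicates 1, 2 and 4.

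Clec4d (MCL), the partner with which Clec4e forms a receptor pair and its neighbour on the chromosome, gave no call. Its signal was 10.88, 11.40, 10.77 and 11.21 with BRSST+sgEzh2, 11.28, 11.52, 10.91, 11.25 and 10.55 with BRSST+sgLuc, and 11.50, 11.27, 10.93 and 11.43 with sgLuc. All 3 ranges overlapped. The BRSST+sgEzh2 difference from sgLuc was -0.22 ± 0.21 (SE, 95% interval -0.66 to 0.23, adjusted p = 0.593), and that of BRSST+sgLuc from sgLuc was -0.18 ± 0.20 (-0.60 to 0.24, adjusted p = 0.574). Between the BRSST groups it was -0.037 ± 0.20 (-0.46 to 0.38, adjusted p = 0.956), and its sign turned when any of 4 arrays was left out. These intervals still allow a fall in Clec4d of the size that Clec4e had between BRSST+sgLuc and sgLuc.

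**Figure D1:**
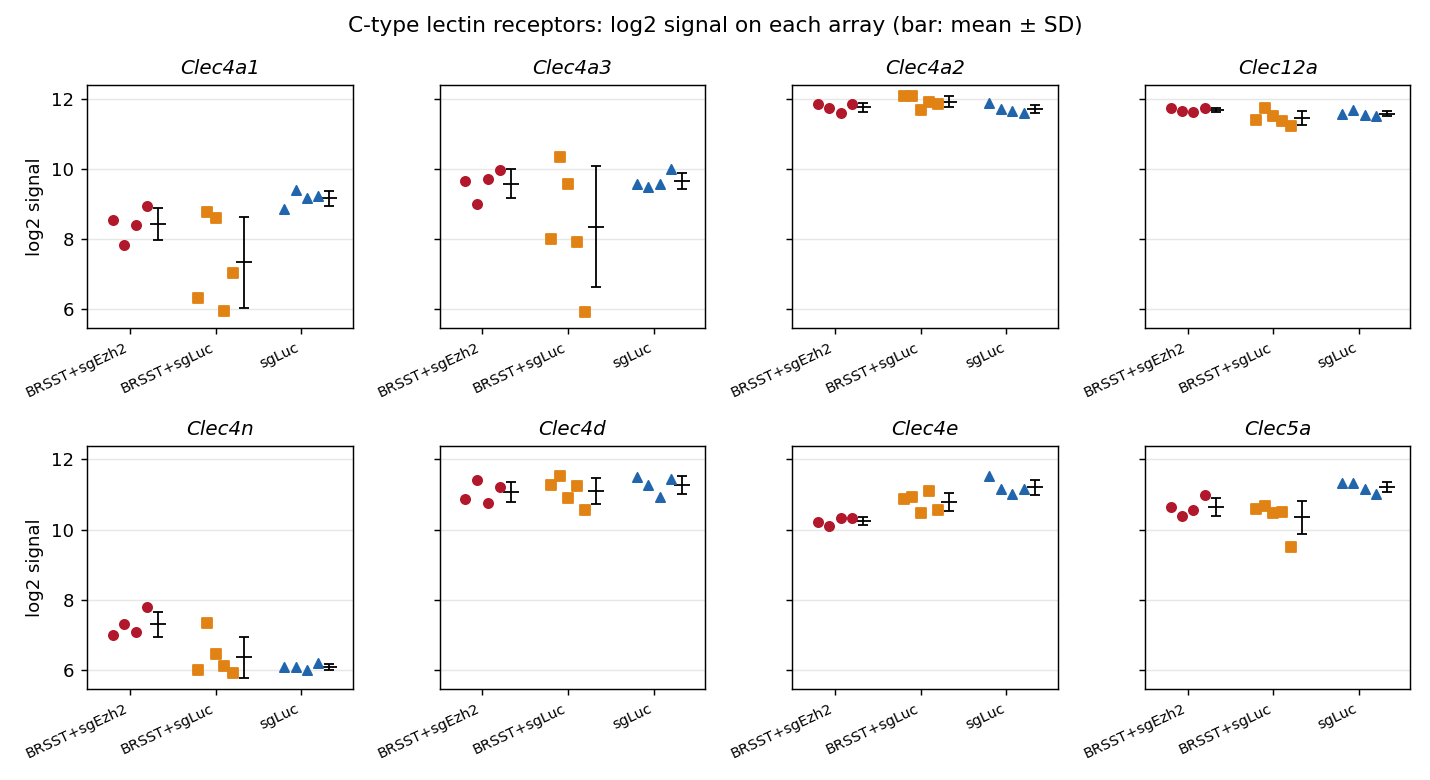
Log2 signal (vertical axis) of the 8 receptors with a row, 1 panel per gene, with 1 point per array, the 3 groups along the horizontal axis and a bar for the mean ± SD. Clec4e shows 4 BRSST+sgEzh2 points at 10.09 to 10.34, all below the other groups, and Clec4a1 and Clec4a3 show wide spread in BRSST+sgLuc.

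Clec4n, the receptor for fungal mannans that also pairs with Fcer1g, went the other way from Clec4e. It read 7.01, 7.32, 7.09 and 7.79 with BRSST+sgEzh2, 6.00, 7.34, 6.44, 6.10 and 5.90 with BRSST+sgLuc, and 6.07, 6.09, 6.01 and 6.21 with sgLuc. All 4 BRSST+sgEzh2 arrays lay above all sgLuc arrays, and 1 of 5 BRSST+sgLuc arrays, replicate 2, reached into their range. Array medians ran from 7.19 to 7.32, so Clec4n was above the median on too few arrays to be tested, and the size of its change is uncertain at such a signal. In a fit of all 19505 genes without the filter, it rose 2.31-fold with BRSST+sgEzh2 against sgLuc (1.21 ± 0.26, SE, adjusted p = 0.0122, where 2.77% of genes were called higher). With any single array removed, 13 fits in all, it still passed (adjusted p up to 0.0396). The difference between the BRSST groups, 0.95 ± 0.24 (SE), did not pass without the filter (adjusted p = 0.104), and it passed without BRSST+sgLuc replicate 2 (1.19, adjusted p = 0.00284). Between BRSST+sgLuc and sgLuc Clec4n differed by 0.26 ± 0.24 (SE, adjusted p = 0.594).

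Clec5a (MDL-1), which signals through Tyrobp in myeloid cells, fell in BRSST+sgLuc marrow. Its signal was 10.60, 10.66, 10.46, 10.51 and 9.51 with BRSST+sgLuc, against 11.33, 11.34, 11.16 and 11.03 with sgLuc. The groups did not overlap, and replicate 5 of BRSST+sgLuc stood apart below the rest. The fall was 1.82-fold (-0.86 ± 0.21, SE, adjusted p = 0.00941), and -0.65 without replicate 5 (adjusted p = 0.00321). With BRSST+sgEzh2 the signal was 10.64, 10.39, 10.56 and 10.98, also below every sgLuc array, with a difference of -0.57 ± 0.22 (SE) that did not pass (adjusted p = 0.122). It passed without BRSST+sgLuc replicate 5 (adjusted p = 0.0126), with only the 2 groups compared (0.0199) and with the replicate number as a block (0.0351), where the difference was again -0.57. The BRSST groups differed by 0.29 ± 0.21 (SE, 95% interval -0.15 to 0.74, adjusted p = 0.576).

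Clec4a1 (Dcir4), a DCIR relative found on monocytes, fell 3.55-fold in BRSST+sgLuc marrow against sgLuc. The signal was 6.33, 8.77, 8.60, 5.96 and 7.02 with BRSST+sgLuc, against 8.87, 9.39, 9.16 and 9.24 with sgLuc. No array overlapped, but BRSST+sgLuc replicates 2 and 3 lay close to the control arrays and replicates 1, 4 and 5 far below them. The difference was -1.83 ± 0.49 (SE, adjusted p = 0.0174). It lay between -2.52 and -1.48 over 22 alternative fits, in all of which it passed (adjusted p up to 0.0499). Lower quartiles of the arrays ran from 5.59 to 5.85, so the lowest of these signals sat in the dim part of an array and the fold is uncertain. In BRSST+sgEzh2 marrow Clec4a1 read 8.53, 7.84, 8.40 and 8.95, overlapping both other groups, with a mean between theirs. It differed by -0.73 ± 0.52 (SE) from sgLuc (adjusted p = 0.44, and 0.0393 with only the 2 groups compared) and by 1.10 ± 0.49 (SE) from BRSST+sgLuc (adjusted p = 0.34, and 0.0126 with array quality weights).

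Clec4a3 (Dcir3), the neighbour and paralog of Clec4a1, had the widest spread of the tested receptors within BRSST+sgLuc. It read 9.65, 9.003, 9.71 and 9.95 with BRSST+sgEzh2. It read 8.02, 10.35, 9.58, 7.92 and 5.91 with BRSST+sgLuc and 9.58, 9.48, 9.56 and 10.01 with sgLuc. The BRSST+sgLuc arrays spanned from below to above both other groups, with an SD of 1.71 (n = 5) beside a median SD of 0.25 over all genes tested in that group. Its BRSST+sgLuc difference from sgLuc, -1.30 ± 0.64 (SE), did not pass (adjusted p = 0.164), and it did without BRSST+sgLuc replicate 2 (-1.80, adjusted p = 0.0263), without replicates 2 and 5 (-1.15, adjusted p = 0.0295) and with array quality weights (-1.50, adjusted p = 0.0024). BRSST+sgEzh2 differed from BRSST+sgLuc by 1.22 ± 0.64 (SE, adjusted p = 0.419, and 0.0295 with array quality weights) and from sgLuc by -0.076 ± 0.67 (SE, adjusted p = 0.966).

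The inhibitory receptors gave no call in any comparison, and their differences were small. Clec12a (MICL), which carries an inhibitory tail and in humans is a surface marker of myeloid leukemia cells, read 11.72, 11.65, 11.61 and 11.75 with BRSST+sgEzh2. It read 11.40, 11.75, 11.51, 11.37 and 11.23 with BRSST+sgLuc, and 11.57, 11.69, 11.53 and 11.52 with sgLuc. The groups overlapped in each comparison. Its difference was 0.23 ± 0.11 (SE, adjusted p = 0.356) between the BRSST groups and 0.11 ± 0.11 (95% interval -0.14 to 0.35, adjusted p = 0.64) for BRSST+sgEzh2 against sgLuc. For BRSST+sgLuc against sgLuc it was -0.12 ± 0.11 (SE, -0.35 to 0.10, adjusted p = 0.454).

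Clec4a2 (Dcir1), the other receptor with an inhibitory tail, read 11.85, 11.73, 11.58 and 11.85 with BRSST+sgEzh2, 12.07, 12.06, 11.68, 11.92 and 11.83 with BRSST+sgLuc, and 11.87, 11.71, 11.64 and 11.60 with sgLuc. All 3 ranges overlapped. The differences were -0.16 ± 0.11 between the BRSST groups, 0.21 ± 0.11 for BRSST+sgLuc and 0.048 ± 0.12 for BRSST+sgEzh2 against sgLuc (SE, adjusted p of 0.563, 0.199 and 0.861). The intervals of both inhibitory receptors stayed within -0.39 and 0.46 in the 3 comparisons, narrower than those of Clec4a1 and Clec4a3.

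**Figure D2:**
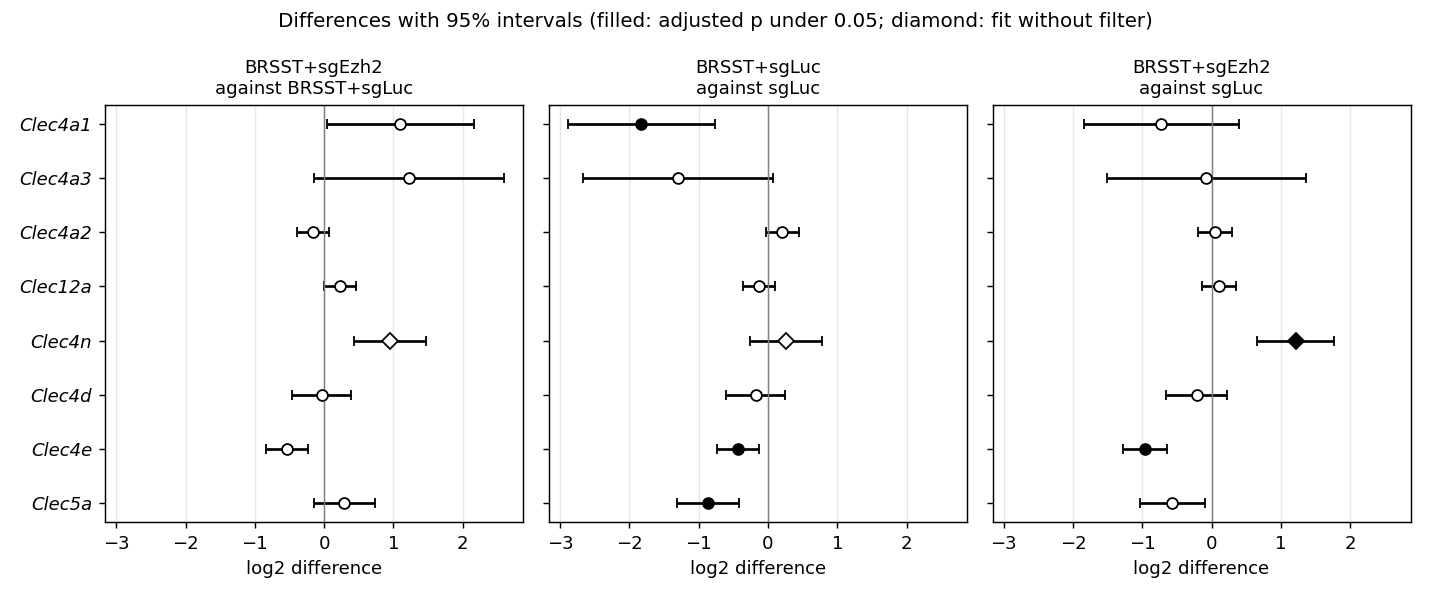
Log2 difference (horizontal axis) of each receptor in the 3 comparisons, with its 95% interval. Filled points passed an adjusted p of 0.05 and diamonds mark Clec4n, from the fit without a filter. Clec4e lies left of 0 in all 3 panels, and Clec4a1 and Clec4a3 have the widest intervals.

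Counted over the 7 tested receptors, 3 fell in BRSST+sgLuc marrow against sgLuc (Clec4a1, Clec4e and Clec5a) and 0 rose, where 11.7% of all genes were called lower and 10.8% higher. None was higher at an unadjusted p under 0.05 either. The median difference was -0.43, beside 0.0092 over all genes, and 2 of 7 had groups that did not overlap (18.9% of all genes). For BRSST+sgEzh2 against sgLuc, 1 fell (Clec4e) and 0 rose, where 3.86% of genes were called lower and 5.51% higher, and 0 were higher at an unadjusted p under 0.05. The median was -0.22, beside 0.023 over all genes, and 2 of 7 did not overlap (23.3% of all genes). These 2 comparisons share the sgLuc arrays. Between BRSST+sgEzh2 and BRSST+sgLuc limma called 0 of 7, where 0.67% of genes were called higher and 0.113% lower. Before adjustment 3 had a p under 0.05, Clec4a1 and Clec12a higher and Clec4e lower, and with array quality weights 2 were called higher and 1 lower. The median was 0.23, beside 0.013 over all genes, and 1 of 7 did not overlap (3.53% of all genes). The shares of all genes called in each comparison are also those to set beside the counts of the gene lists below.

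Along the cluster, neighbours differed in direction. Clec4b2, a receptor between Clec4a2 and Clec4n and no member of the set, rose with BRSST+sgEzh2 (1.41 ± 0.29, SE, adjusted p = 0.00698) and with BRSST+sgLuc (1.03 ± 0.27, SE, adjusted p = 0.0153), each against sgLuc. Its signal was 11.08, 10.57, 10.70 and 10.74 with BRSST+sgEzh2 and 10.38, 11.06, 10.94, 10.24 and 9.32 with BRSST+sgLuc, against 9.21, 9.43, 9.45 and 9.34 with sgLuc. Clec4b1 differed by -0.40 ± 0.25 with BRSST+sgEzh2 and by -0.40 ± 0.24 with BRSST+sgLuc against sgLuc (SE, adjusted p of 0.375 and 0.266). Clec4a4 had low signals, 4.55, 4.51, 4.58 and 5.85 with BRSST+sgEzh2, 4.27, 4.92, 4.66, 4.63 and 4.22 with BRSST+sgLuc and 4.75, 4.78, 4.25 and 4.74 with sgLuc, and was not tested. Thus within 9 neighbouring genes the calls against sgLuc ran in both directions, with Clec4b2 higher, Clec4a1 and Clec4e lower, and Clec4n higher in the fit without a filter.

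**Figure D3:**
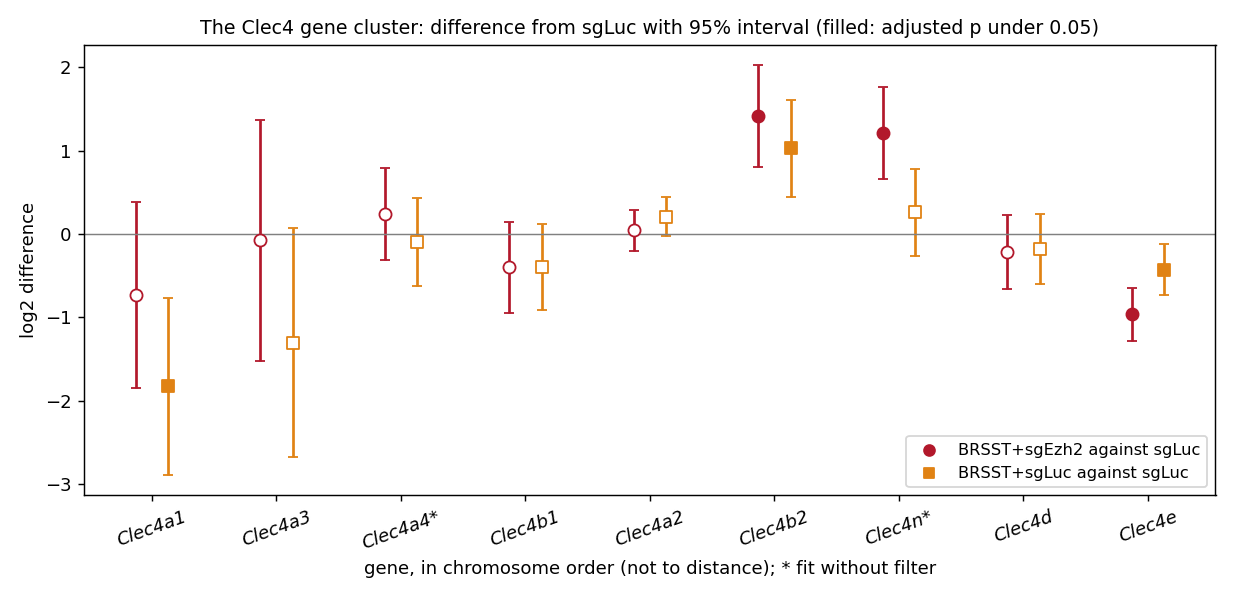
Log2 difference from sgLuc (vertical axis) with its 95% interval for the 9 genes of the Clec4 cluster, in chromosome order and not to distance, for BRSST+sgEzh2 (circles) and BRSST+sgLuc (squares). Filled points passed an adjusted p of 0.05 and stars mark genes from the fit without a filter. Clec4b2 is above 0 in both groups and Clec4e, 3 genes on, below 0 in both.

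Monocyte markers were lower in the BRSST+sgLuc arrays that had low Clec4a1 and Clec4a3. Of 12 markers, all tested, 8 fell and 0 rose in BRSST+sgLuc marrow against sgLuc, among them Ccr2, the chemokine receptor of classical monocytes (-1.57 ± 0.33, adjusted p = 0.00484), and Cx3cr1, that of patrolling monocytes (-2.44 ± 0.28, adjusted p = 0.000107). None of the 12 was higher at an unadjusted p under 0.05. Cx3cr1 and Ace, both among the 8, were below the array median on every BRSST+sgLuc array and above it on every sgLuc array. Between these groups they could only be called lower. Their BRSST+sgLuc signals, 5.47 to 6.96 and 4.79 to 6.41, reached into the dim part of an array, so the size of these falls is uncertain. The mean over the 12 was 9.53, 9.35, 9.58 and 10.14 with BRSST+sgEzh2, 8.67, 9.49, 9.55, 8.71 and 8.46 with BRSST+sgLuc, and 10.10, 10.14, 10.15 and 10.34 with sgLuc. BRSST+sgLuc replicates 2 and 3, the arrays with the higher Clec4a1 and Clec4a3, were also the higher ones for this mean. For Clec4e the order differed, since BRSST+sgEzh2 arrays had the lowest Clec4e beside a higher monocyte mean than BRSST+sgLuc replicates 1, 4 and 5. Between the BRSST groups limma called 1 of 12 higher, Mpeg1, a pore-forming protein of macrophages (1.38 ± 0.28, SE, adjusted p = 0.0371), and 0 lower. All 12 differences lay above 0, with a median of 0.76, and 6 had an unadjusted p under 0.05. F13a1 (adjusted p = 0.0594) and Csf1r (0.0603) came close to the threshold. With BRSST+sgEzh2 against sgLuc 3 fell and 1 rose. The part of monocyte content in these results was not tested.

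**Figure D4:**
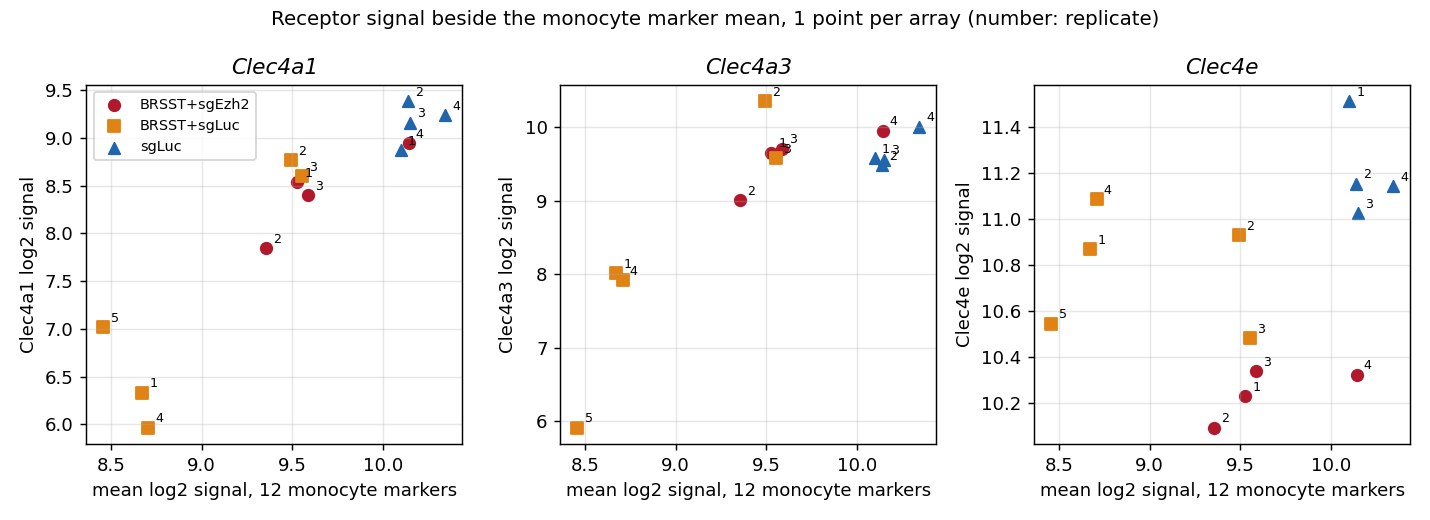
Log2 signal of Clec4a1, Clec4a3 and Clec4e (vertical axes, scaled per panel) beside the mean log2 signal of 12 monocyte markers (horizontal axis), with 1 point per array and its replicate number. The 3 BRSST+sgLuc arrays with a monocyte mean of 8.46 to 8.71 have the lowest Clec4a1 and Clec4a3, whereas the lowest Clec4e belongs to BRSST+sgEzh2.

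Neutrophil markers were also lower beside Clec5a and Clec4e. Of 11 tested markers 5 fell and 0 rose in BRSST+sgLuc marrow against sgLuc, with Csf3r, the receptor of granulocyte colony-stimulating factor, at -0.76 ± 0.10 (adjusted p = 0.000304), and 0 were higher at an unadjusted p under 0.05. With BRSST+sgEzh2 2 fell against sgLuc, Csf3r at -0.37 ± 0.11 (adjusted p = 0.0438) and Ltf, the granule protein lactoferrin, at -0.43 ± 0.10 (adjusted p = 0.0168). The neutrophil mean ranged from 12.37 to 12.61 with BRSST+sgEzh2, from 12.30 to 12.43 with BRSST+sgLuc and from 12.63 to 12.81 with sgLuc. Its part in the falls of Clec5a and Clec4e was not tested.

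In the signalling chain below the receptors, several kinases and genes near them fell. Of 11 tested adaptor and kinase genes, 5 fell and 0 rose in BRSST+sgLuc marrow against sgLuc, with a median of -0.26, and 0 were higher at an unadjusted p under 0.05. Prkcd, the kinase that activates Card9, fell by 0.81 ± 0.13 (adjusted p = 0.00077), Fgr, a Src family kinase, by 0.83 ± 0.21 (adjusted p = 0.0113), and Plcg2, the phospholipase below Syk, by 0.67 ± 0.14 (adjusted p = 0.004). Syk fell by 0.46 ± 0.13 (adjusted p = 0.0205), a call that ended without sgLuc replicate 1 (0.0756). Malt1, the protease of the Card9 complex, fell by 0.45 ± 0.13 (adjusted p = 0.024), which ended without sgLuc replicate 2, 3 or 4 (up to 0.0725). These signals come from all marrow cells, and markers of B, T and NK cells fell in the same comparison, as given below. The part of cell content in the falls of these signalling genes was not tested.

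The adaptors Tyrobp and Fcer1g gave no call, except that Fcer1g passed with array quality weights. Tyrobp, the partner of Clec5a, differed by -0.049 ± 0.093 (SE, 95% interval -0.25 to 0.15, adjusted p = 0.763) between BRSST+sgLuc and sgLuc, and Fcer1g, the partner of Clec4d, Clec4e and Clec4n, by -0.26 ± 0.13 (-0.54 to 0.024, adjusted p = 0.181). Card9 differed by 0.24 ± 0.13 (adjusted p = 0.214), and it passed as higher without BRSST+sgLuc replicate 2 (0.0306), without replicates 2 and 5, and with array quality weights. With BRSST+sgEzh2 against sgLuc, 1 of 11 fell, Prkcd (-0.51 ± 0.13, adjusted p = 0.0277). Removing BRSST+sgEzh2 replicate 2 or 3, or sgLuc replicate 1, 2 or 3, ended that call (up to 0.0934). Plcg2, at -0.48 ± 0.15 (adjusted p = 0.0563), passed when replicate 2 or 5 of BRSST+sgLuc, or replicate 4 of BRSST+sgEzh2, was left out (down to 0.0148). Between the BRSST groups limma called 0 of 11, while 3 had an unadjusted p under 0.05, all higher, with Malt1 at 0.34 ± 0.13 (adjusted p = 0.252) and Fgr at 0.51 ± 0.21 (adjusted p = 0.281).

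Among the phosphatases of the inhibitory receptors, Ptpn6 (SHP-1) fell in BRSST+sgLuc marrow against sgLuc (-0.50 ± 0.15, SE, adjusted p = 0.0278), 1 of 3 tested. That call ended without BRSST+sgLuc replicate 1 or sgLuc replicate 1, 3 or 4 (adjusted p up to 0.0684), and with equal array medians. Inpp5d (SHIP-1) was at -0.19 ± 0.16 and Ptpn11 (SHP-2) at -0.16 ± 0.12 (adjusted p of 0.43 and 0.394). In both other comparisons limma called 0 of 3, and 0 had an unadjusted p under 0.05.

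Response genes, which these receptors can switch on in myeloid cells, moved apart from each other. Of 9 tested, Cxcl2, a neutrophil-attracting chemokine, rose in BRSST+sgLuc marrow against sgLuc by 1.60 ± 0.35 (adjusted p = 0.00613). Ptgs2, the inducible cyclooxygenase, fell by 1.22 ± 0.31 (adjusted p = 0.0118) and Nlrp3, the inflammasome sensor, by 0.90 ± 0.30 (adjusted p = 0.0473, lost without any of 8 arrays, BRSST+sgEzh2 replicates 1 and 2, BRSST+sgLuc replicates 1, 4 and 5 and sgLuc replicates 1, 2 and 4, up to 0.14). With BRSST+sgEzh2 against sgLuc, Ccl3, a macrophage chemokine, rose by 0.93 ± 0.23 (adjusted p = 0.0209), alone of the 9. Removing replicate 2 or 3 of BRSST+sgEzh2, or replicate 2 or 3 of sgLuc, ended that call (up to 0.0647). Ptgs2, at -0.98 ± 0.32 (adjusted p = 0.0744), passed without BRSST+sgLuc replicate 5 or sgLuc replicate 3 (down to 0.0342). Between the BRSST groups limma called 0 of 9, and 4 differences lay above 0 and 5 below. Ccl3, at 0.63 ± 0.22 (adjusted p = 0.211), was the 1 gene past an unadjusted p of 0.05. Tnf had the next smallest p, at -0.84 ± 0.39 (adjusted p = 0.359), and Cxcl2 was at -0.68 ± 0.35 (adjusted p = 0.414). With array quality weights Tnf, Cxcl2 and Nfkbiz passed and Ccl3 did not.

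Other C-type lectin receptors fell more often than they rose in BRSST+sgLuc marrow against sgLuc, with 7 lower and 1 higher of 11 tested. Their median was -0.64, and of all genes 11.7% were called lower and 10.8% higher. The list held 20 genes, and those not tested had too low a signal. The count of lower genes ran from 4, without sgLuc replicate 1, to 8, without BRSST+sgLuc replicate 2, over the fits without 1 array. All 4 tested plasmacytoid dendritic cell markers and 1 of 5 conventional ones, Itgax, also fell, and 4 of 5 erythroid markers rose. Of other cell types' markers, 5 of 6 for B cells (median -2.93), 5 of 5 for T and NK cells (median -2.67) and 3 of 4 for basophils (median -2.64) fell as well. The part of these cells in the falls of the receptors, the signalling genes and the phosphatases was not tested. Among these markers, Itgax, Ccr9, Fcer1a, Vpreb3 and Cd3g were above the array median on every sgLuc array and on no BRSST+sgLuc array. Between these groups they could only be called lower, and Itgax, Ccr9 and Fcer1a passed the filter through sgLuc alone. The reverse held for Rhag, which could only be called higher, so these counts follow in part from the filter. Ly75, the endocytic receptor of dendritic cells, fell by 1.64 ± 0.16 (adjusted p = 2.29e-05), Cd209a, a dendritic cell lectin, by 1.91 ± 0.40 (adjusted p = 0.00496), and Mrc1, the macrophage mannose receptor, by 1.75 ± 0.47 (adjusted p = 0.0176, and 0.0592 without sgLuc replicate 1). Mrc1 read 4.94 to 7.47 with BRSST+sgLuc and 4.68 to 6.66 with BRSST+sgEzh2, partly in the dim part of an array. The size of its fall is therefore uncertain in both groups. With BRSST+sgEzh2 it was below the median of every array, so against sgLuc it could only be called lower there. Clec2d, a ligand of a natural killer receptor, fell by 2.05 ± 0.42 (adjusted p = 0.00382) and Olr1, the receptor for oxidised lipoprotein, by 1.06 ± 0.19 (adjusted p = 0.0018).

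With BRSST+sgEzh2 against sgLuc, 3 of the 11 fell and 2 rose. Lower genes numbered 5 without BRSST+sgLuc replicate 2, where Cd209a (adjusted p = 0.0146) and Clec2d (0.0411) passed too. The falls were Ly75 (-1.55 ± 0.17, adjusted p = 6.85e-05), Mrc1 (-2.32 ± 0.50, adjusted p = 0.0102) and Clec10a, the galactose-type lectin (-0.89 ± 0.18, adjusted p = 0.00617). In this comparison 4 of 4 plasmacytoid dendritic cell markers (median -2.14) and 3 of 4 basophil markers (median -2.85) fell too. So did 1 of 5 conventional dendritic and 1 of 6 B cell markers, while 0 of 5 for T and NK cells were called. The part of these cells in the falls was not tested. The rises were Clec4b2, given above, and Cd302 (1.39 ± 0.39, adjusted p = 0.0423), whose call ended without any of 8 arrays (BRSST+sgEzh2 replicates 1, 3 and 4, BRSST+sgLuc replicates 1 and 4 and sgLuc replicates 1, 2 and 3, up to 0.122). Between the BRSST groups Olr1 was the 1 call. It read 10.24, 10.73, 10.09 and 10.28 with BRSST+sgEzh2, against 9.22, 9.01, 10.05, 9.37 and 9.64 with BRSST+sgLuc. Its rise, 0.87 ± 0.19 (SE, adjusted p = 0.0495), held in 2 of the 13 fits without 1 array, those without BRSST+sgLuc replicate 2 or 3, and reached 0.133 in the others.

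**Figure D5:**
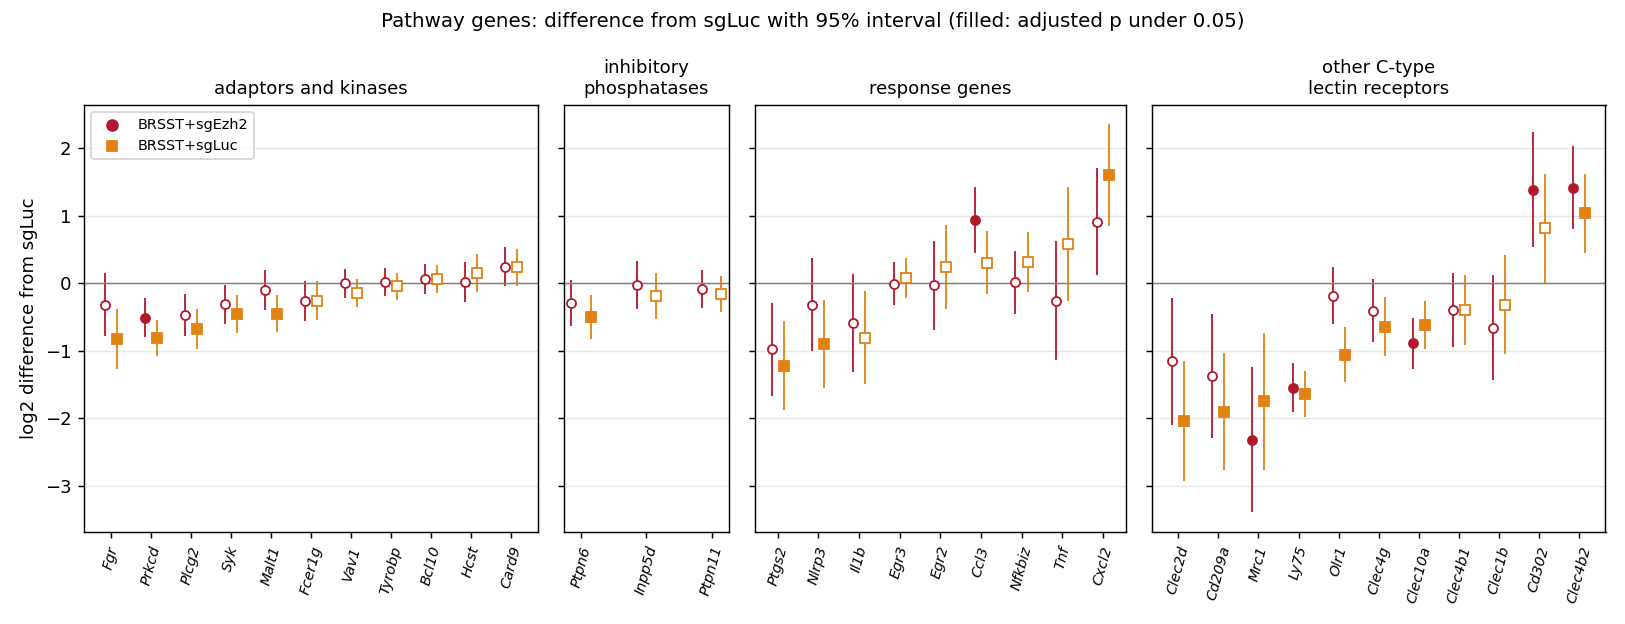
Log2 difference from sgLuc (vertical axis) with its 95% interval for the tested adaptor and kinase, phosphatase, response and other lectin receptor genes, for BRSST+sgEzh2 (circles) and BRSST+sgLuc (squares). Filled points passed an adjusted p of 0.05. Fgr, Prkcd, Plcg2, Syk and Malt1 are filled squares below 0, and Ly75 and Mrc1 are filled below 0 in both groups.

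The receptors did not follow a common profile. Likeness was measured as the mean absolute difference between profiles centred on their own mean over the 13 arrays, in log2 units, which is small for any pair of steady genes. Clec4a2 and Clec12a were the nearest pair of receptors (0.19), and Clec4e and Clec4a3 the farthest apart (0.95). Clec4a1 and Clec4a3 each had the other as its nearest receptor, at a wider distance (0.56). The nearest gene outside the set was sought with symbols made of Gm and digits, or ending in Rik, left out. It was Stxbp6 for Clec4a1 (0.20), Arhgef37 for Clec4a3 (0.28), Cmtr1 for Clec4e (0.13) and Cmpk2 for Clec5a (0.13). For the other receptors it was E2f5 for Clec4d (0.083), Ccdc50 for Clec12a (0.070) and Dhrs7 for Clec4a2 (0.056).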

How the data were processed

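Arrays were grouped by the treatment label. The deposited values are log2 signals. The submitters' processing notes list R 3.5.01 and the package oligo for what the authors did. The handling of background and normalization is not given in these sources. The log2 scale was read from the values, which run from 3.23 to 13.75. Precision is limited by how many arrays there are.

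Of 22203 rows, 19572 had 1 gene symbol in the platform annotation, 0 several and 2631 none, and 0 symbols changed by Entrez number against RefSeq (GRCm38.p6). The row of highest mean was used per symbol. A gene was tested if above its array's median on at least 4 arrays. As sgLuc has 4 arrays, a gene high there alone was tested, and against sgLuc it could only be called lower. All 13 arrays entered 1 linear model (lmFit and eBayes of limma 3.58.1, under R 4.3.3), with Benjamini-Hochberg adjustment over 10601 genes. The fit recovered 81% to 89% of the genes changed by log2 1 in data simulated for each comparison. This share need not hold for smaller changes or for these receptors. Their median SD was wider than that of all genes tested in each group (0.38 beside 0.25 in BRSST+sgLuc). Named list genes were up to 5 called genes of largest difference per list and comparison, or the 2 of smallest p, and not all so taken are described. The gene of nearest profile was named per receptor, with symbols made of Gm and digits, or ending in Rik, left out. Figures were drawn with matplotlib 3.10.9. Members and lists were chosen with earlier results of these data known. Alternatives were other filters, normalizations, variance models, weights, a replicate block, fewer groups and each array left out. The fits of Clec4n with 1 array left out were added after seeing the data.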

Additional observations from a re-analysis of the deposited data

Results flagged for a closer look

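Of 24 gene and group pairs tested for an array far from the others of its group, 1 stood out, and chance gives about 1 in 20. Clec5a on BRSST+sgLuc replicate 5 had a log2 signal of 9.51, where the nearest array of the group was at 10.46. The gap was 0.827 of the group's range. The same array also had the lowest signals of its group for Clec4a3, Clec4d, Clec4n and Clec12a.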

How the results depend on the processing

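Directions of the 7 tested receptors held in every alternative run, with 2 exceptions close to 0. Clec4d between BRSST+sgEzh2 and BRSST+sgLuc ranged from -0.17 to 0.067 without 1 array, and was 0.025 and 0.062 when replicate 1 or 3 of BRSST+sgEzh2 was removed, and 0.0080 and 0.067 when replicate 1 or 2 of BRSST+sgLuc was. Clec4a3 between BRSST+sgEzh2 and sgLuc ranged from -0.20 to 0.12, and was 0.12 without BRSST+sgEzh2 replicate 2 and 0.041 without sgLuc replicate 4. Receptors called lower numbered 2 to 4 for BRSST+sgLuc against sgLuc, 1 to 2 for BRSST+sgEzh2 against sgLuc and 0 to 1 for BRSST+sgEzh2 against BRSST+sgLuc over the fits without 1 array, with 0 called higher in any of them. For BRSST+sgEzh2 against sgLuc, 2 were lower with array quality weights, with the replicate block and without BRSST+sgLuc replicates 2 and 5, 3 with only the 2 groups compared, and 1 was higher without a filter (Clec4n). For BRSST+sgEzh2 against BRSST+sgLuc, 2 were higher and 1 lower with array quality weights.

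Counts over all genes moved more. Between the BRSST groups the 83 calls became 128 without a filter, 36 with the filter at the 75th percentile, 55 with equal medians, 1039 with array quality weights, 28 with the replicate block, 17 with only the 2 groups compared, 143 without BRSST+sgLuc replicates 2 and 5, and 22 to 377 without 1 array. The 2389 calls of BRSST+sgLuc against sgLuc became 4879 with array quality weights and 1481 to 2839 without 1 array. The 993 calls of BRSST+sgEzh2 against sgLuc became 2976 with array quality weights, 1822 with only the 2 groups compared, 1739 without BRSST+sgLuc replicates 2 and 5, and 519 to 1344 without 1 array. The causes were not tested. Deviations of same-numbered arrays from their group means had correlations from -0.18 to 0.19, over 0.1 in 4 of 12 pairs. No reference was made for such values, so whether the numbers pair the samples is not settled. The replicate block ended the Clec4e call between BRSST+sgLuc and sgLuc (adjusted p = 0.0857). With it the Clec5a difference of BRSST+sgEzh2 from sgLuc passed (adjusted p = 0.0351).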
